A study of Danio rerio with 24 samples.

Results

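The genes described here build the light response of vertebrate photoreceptors and hold up the outer segment, the stack of membranes in which that response takes place, with the visual opsins left aside. A list of 53 zebrafish genes was matched to the probes through their RefSeq accessions, and 34 of the 53 genes could be given a probe. Of these, 33 genes, measured by 54 probes, were bright enough to be tested, out of 31507 tested and 43603 probes in all. By what is known of where they are expressed, 7 of the 33 belong to rods, 12 to cones and 14 to both cell types or to their precursors. The genes were chosen by what they do and not by a threshold on their values.

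In a photoreceptor, light absorbed by an opsin activates transducin, a G protein of alpha, beta and gamma subunits. Transducin switches on a phosphodiesterase (PDE6) that breaks down cyclic GMP, and the channels held open by cyclic GMP close. Opsin kinases and arrestins end the response, and calcium sensors such as the guanylate cyclase activating proteins and recoverins tune its recovery. Rods and cones run the same cascade with separate sets of genes, and in the zebrafish eye the photoreceptors differentiate during the days in which these eyes were collected.

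Zebrafish of the AB line were placed at 48 h after fertilization (hpf) in 0.3 μM mebendazole (MBZ), a benzimidazole anthelmintic that binds tubulin, or in 0.3 μM BBC, a relative with a butyl ester on the benzoyl ring of the mebendazole skeleton, which the study used as the control. Eyes were collected after 12, 24 or 36 h of exposure, at 60, 72 or 84 hpf, and the pooled eyes of many larvae made up each sample. Each of the 6 groups held 4 samples, each hybridized to its own array, 24 arrays in all. The labels number the samples without saying that they came from separate exposures, so the tests measure the spread between these pools. No eyes free of both compounds were analysed here, so MBZ was compared with BBC of the same age, and changes with age were followed within each compound.

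The 75th percentile of the signal ranged from 437 to 1430 intensity units over the arrays, with its lowest values at 72 hpf, and 66.5% to 76.7% of the probe spots were well above background. Values are given below as the log2 of a probe's signal minus the log2 of that percentile on the same array, so that a step of 1 is a doubling and a value below 0 lies under the percentile. Each probe has its own brightness, and levels of different genes are therefore not compared. The 3 ages were scanned on 3 separate days, so age, length of exposure and scan day cannot be told apart. Each of the 6 slides carried 4 arrays of 1 age, where BBC always took positions 1 and 3 and MBZ the other two, and the effect of a position cannot be told apart from that of a compound. In RNA from whole eyes, fewer photoreceptors and less RNA per photoreceptor also look alike.

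No probe could be given the name of 19 of the listed genes. These were nr2e3, gngt2a, gngt2b, pde6b, pde6ga, pde6gb, pde6ha, gc3, cnga1, cnga3a, cngb1a, cngb3.1, rbp4l, pdca, tulp1a, aipl1, impg2a, slc24a1 and rgs9a, so the channel subunits and most inhibitory PDE6 subunits are not described. The probe of guca1d did not reach the brightness required. Among the 33 tested genes, grk1a and guca1b passed only through the arrays of the later ages, and the other 31 had passed at 60 hpf in BBC or MBZ eyes. A gene that passes only where it is high is bound to show a rise, and the counts and medians of changes with age are therefore also given without these 2 genes. No member probe had a saturated spot.

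The first question was whether MBZ changed these genes. None of the 33 was called different between MBZ and BBC eyes at 12, 24 or 36 h, at an adjusted p under 0.20 in limma. Over all probes 0.321% were called at 12 h, 0.321% at 24 h and 5.62% at 36 h. The median difference over the 33 genes, MBZ minus BBC on the log2 scale, was 0.12 at 12 h, 0.04 at 24 h and −0.15 at 36 h, where the medians over all tested probes were 0.01, −0.01 and −0.01. At an unadjusted p under 0.05 there was 1 gene at 12 h, 0 at 24 h and 2 at 36 h. The rank product, the kind of test named in the study's methods, called 0 of the 33 at each time. Over all probes it called 738 of 31471 at 12 h, 536 of 31404 at 24 h and 782 of 30306 at 36 h. At shares this small, 0 of 33 adds little. The smallest adjusted p among the 33 genes was 0.966, 1 and 0.313 at the 3 times.

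**Figure D1:**
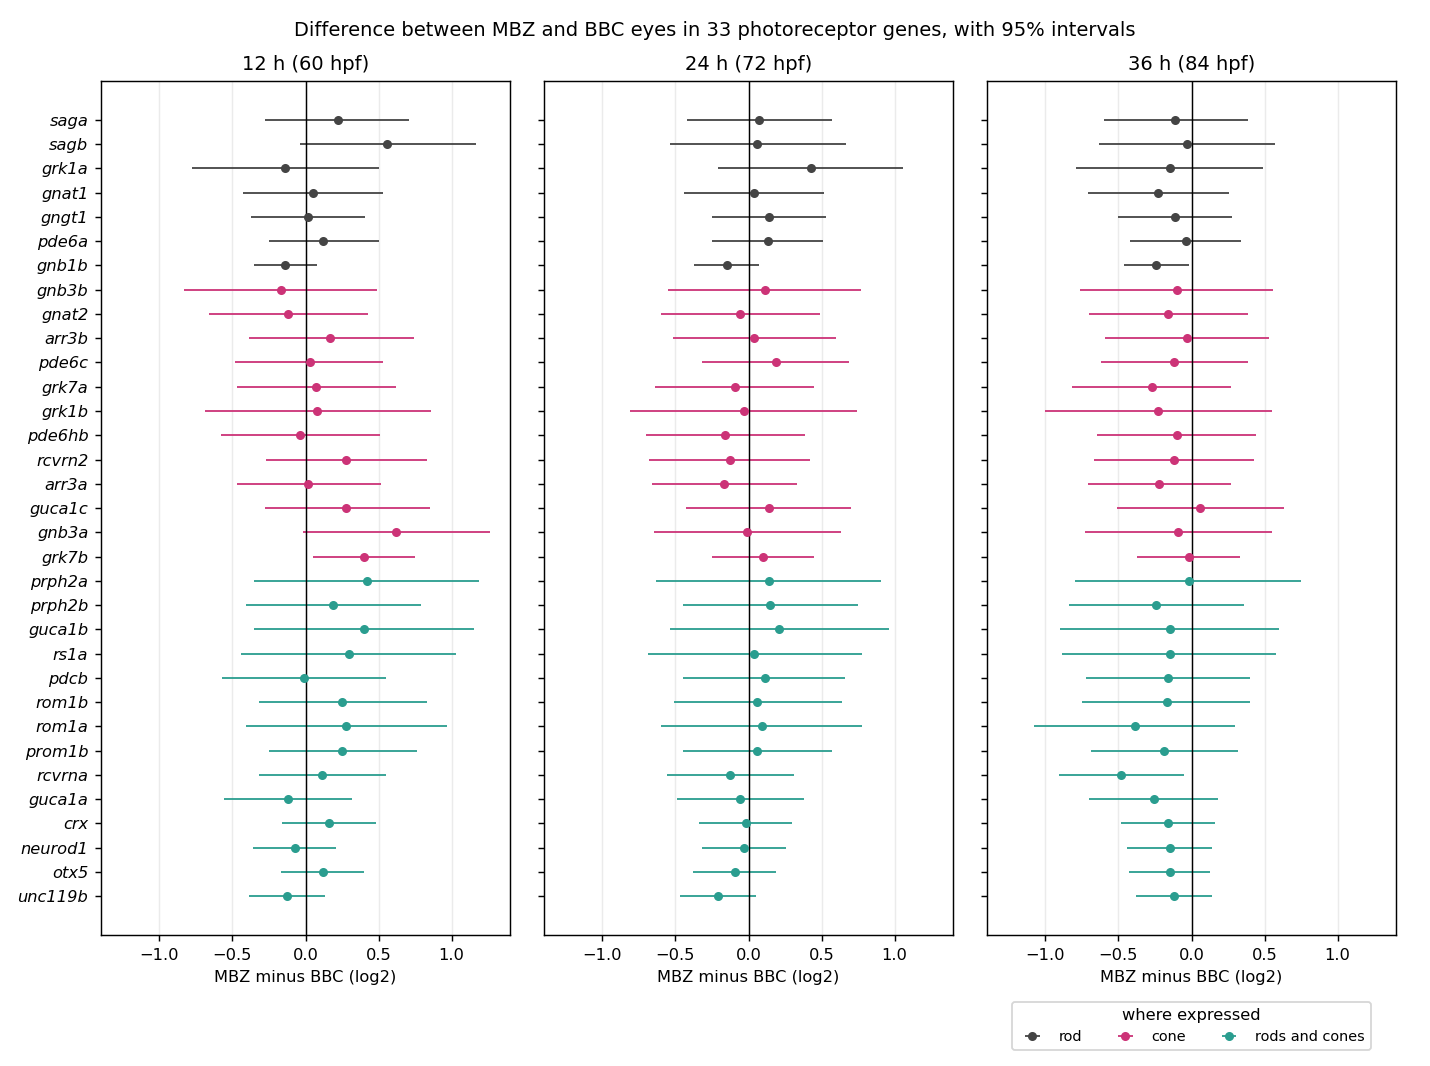
MBZ minus BBC on the log2 scale (x axis) for each of the 33 genes (y axis, 4 arrays against 4) after 12, 24 and 36 h, with 95% intervals from the limma fit, coloured by the cell type in which the gene is known to be expressed. At 36 h 32 of the 33 points lie left of 0, and none of the 33 differences was called at any time.

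The intervals show what size of effect these arrays leave room for. They come from the fit without replicate pairs, also at 24 h, where the sample numbers were taken as pairs. At 12 h the 95% interval lay within a 2-fold change in either direction for 28 of the 33 genes, at 24 h for 32 and at 36 h for 31. The genes whose interval reached past 2-fold were gnb3a, guca1b, prph2a, rs1a and sagb at 12 h, grk1a at 24 h, and grk1b and rom1a at 36 h. At 36 h the lowest lower bound was −1.08, for rom1a, a partner of peripherin in the rim of the outer segment discs, and the highest upper bound 0.75, for prph2a, a peripherin. Cone and rod genes had the same median difference at 36 h, −0.11 for the 7 rod genes and −0.11 for the 12 cone genes.

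At 36 h 32 of the 33 genes were lower in MBZ eyes in their means and guca1c, a cone guanylate cyclase activating protein, was the exception with 0.06 ± 0.27 (SE). Over all tested probes, 16670 of 31506 were lower. The gene with the smallest p at 36 h was rcvrna, a recoverin, the calcium sensor that restrains opsin kinase. Its values at 84 hpf were 2.38, 2.45, 2.9 and 2.37 in the 4 BBC samples and 1.71, 2.08, 2.32 and 2.08 in the 4 MBZ samples. All 4 MBZ samples thus lay below all 4 BBC samples, the only gene of the 33 for which this held, against 2.84% of the probes with values on all arrays. The difference was −0.48 ± 0.21 (SE), a level 0.717 times that of BBC eyes, with an adjusted p of 0.313 in limma. An exact two-sided permutation test of 4 against 4 gave p = 0.0286, the smallest it can give. Such a separation always gives this value, so the test adds nothing to it. The other probe of rcvrna gave −0.47 with overlapping groups and an adjusted p of 0.348.

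The next smallest adjusted p at 36 h, 0.317, belonged to gnb1b, a G protein beta subunit that in mammals forms rod transducin and is also used by many other neurons. The 4 BBC samples had 4.06, 4.17, 3.91 and 4.03 at 84 hpf, and the 4 MBZ samples 3.67, 3.93, 3.96 and 3.65. MBZ replicate 3 lay above BBC replicate 3, so the groups overlapped, and the difference was −0.24 ± 0.1 (SE). Both genes passed the threshold in a fit that takes the replicate number within each exposure time as a block, with adjusted p = 0.184 for rcvrna and 0.195 for gnb1b. That fit assumes pairs, and the samples of 36 h were not taken as paired. The share of all probes called in it is not given here. Without BBC replicate 3 of 36 h gnb1b alone passed, at an adjusted p that rounds to 0.2.

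The lower means at 36 h did not hold on both slides. On the slide that carried replicates 1 and 2, 32 of the 33 genes were lower in MBZ eyes with a median of −0.41. On the slide of replicates 3 and 4, 10 were lower and 23 higher with a median of 0.10. The same counts over all probes are not given here for single slides. A single sample stood out. MBZ replicate 1 of 36 h was the lowest of its group in 28 of the 33 genes and its median deviation from the BBC mean was −0.76. The other MBZ samples of 36 h deviated by −0.22, 0.24 and 0.08, and without MBZ replicate 1 the median difference at 36 h was 0.03 and 12 of 33 genes were lower.

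BBC samples were spread in the same way. BBC replicate 2 of 12 h was the lowest of its group in 28 of the 33 genes, BBC replicate 3 of 24 h the highest in 27, and BBC replicate 4 of 36 h the lowest in 27. At 12 h the slides also pointed opposite ways, with 27 genes higher in MBZ eyes on the slide of replicates 1 and 2 and 25 lower on the slide of replicates 3 and 4. In MBZ replicate 1 of 36 h rod and cone genes were both low, with median deviations from the BBC mean of −0.78 and −0.67.

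**Figure D2:**
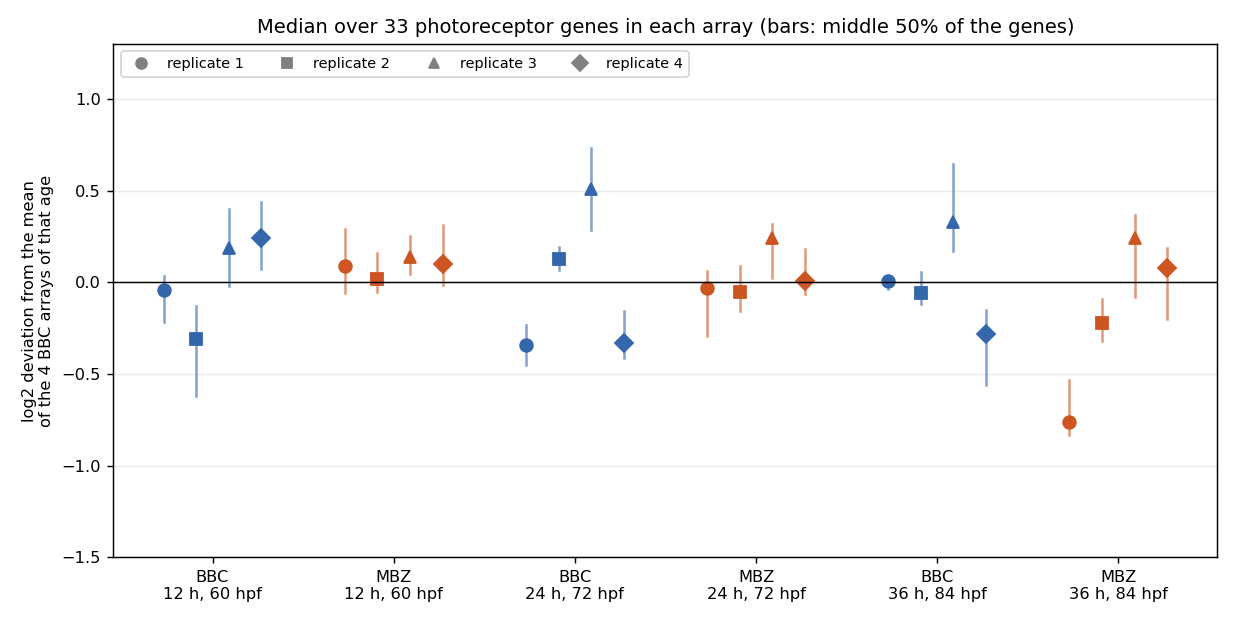
Median over the 33 genes of each array's log2 deviation from the mean of the 4 BBC arrays of the same age (y axis), by compound and age (x axis), with symbols for the replicates and bars for the middle 50% of the genes. MBZ replicate 1 of 36 h is the lowest array at −0.76 and BBC replicate 3 of 24 h the highest at 0.51.

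Markers of other cells were compared at 36 h in the same way, where 5.62% of all probes were called. Of 9 tested lens genes 5 were called lower in MBZ eyes and the median over the 9 was −0.63, the log2 of the summed lens signals, relative to the 75th percentile, ranging from 8.36 to 9.0 in MBZ eyes against 9.11 to 9.58 in BBC eyes. Of 7 genes of amacrine and ganglion cells rbpms2a and rbpms2b, RNA-binding proteins of ganglion cells, were called lower, at −0.95 and −0.59 on the log2 scale. The other 5 genes of that list were not called, with −0.78 for pou4f3, −0.07 for elavl3, 0.05 for gad2, 0.11 for gad1b and 0.13 for slc32a1. Of 4 genes of Müller glia glula, a glutamine synthetase, was called higher by 0.51. The 3 bipolar cell genes did not go one way, since cabp5b, a calcium-binding protein, was called higher by 1.11 and vsx1 and grm6b were both at −0.36 without a call. All 4 genes of skeletal muscle, 6 of pigment epithelium, 4 of progenitors and 4 of red blood cells were without a call at the 3 times. The part of lens or neuron RNA in the small differences of the photoreceptor genes was not tested.

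Whether the effect of MBZ itself differed between exposure times was tested in the same fit. None of the 33 genes was called for 24 h against 12 h, where 0% of all probes were called, for 36 h against 12 h (0.362%) or for 36 h against 24 h (0.0635%). The smallest adjusted p of a member was 0.605, for 36 h against 12 h. In that comparison 31 of 33 differences were below 0 with a median of −0.28. Over all tested probes 16315 of 31506 were below 0, with a median of −0.01. The differences of the 33 genes take in the low MBZ replicate 1 of 36 h and the low BBC replicate 2 of 12 h.

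Changes with age were far larger than those with the compound. A gene is said here to have risen when its log2 change was at least 1, a doubling, at an adjusted p under 0.05 in limma. In BBC eyes 26 of the 33 genes rose between 60 and 72 hpf, where 22.3% of all probes did so, and 25 rose between 72 and 84 hpf, where 5.82% did. From 60 to 84 hpf 29 of 33 rose (15.1% of all probes), and none of the 33 fell 2-fold in any interval, where 10.6%, 9.7% and 8.67% of all probes did. Without grk1a and guca1b, 24, 24 and 27 of 31 rose. The median change over the 33 genes was 1.98, 1.63 and 4.26 on the log2 scale in the earlier, the later and the whole interval, against medians of 0.20, −0.13 and 0.03 over all tested probes.

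In MBZ eyes 25 of the 33 rose from 60 to 72 hpf (21.1% of all probes), 24 from 72 to 84 hpf (6.92%) and 28 over the whole time (13%), and none fell 2-fold, where 11.2%, 11.7% and 8.4% of all probes did. Without grk1a and guca1b, 23, 23 and 26 of 31 rose. The 4 genes that did not rise 2-fold from 60 to 84 hpf in BBC eyes were otx5, gnb1b, grk7b and unc119b, and in MBZ eyes crx, with 0.88 ± 0.15, joined them.

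**Figure D3:**
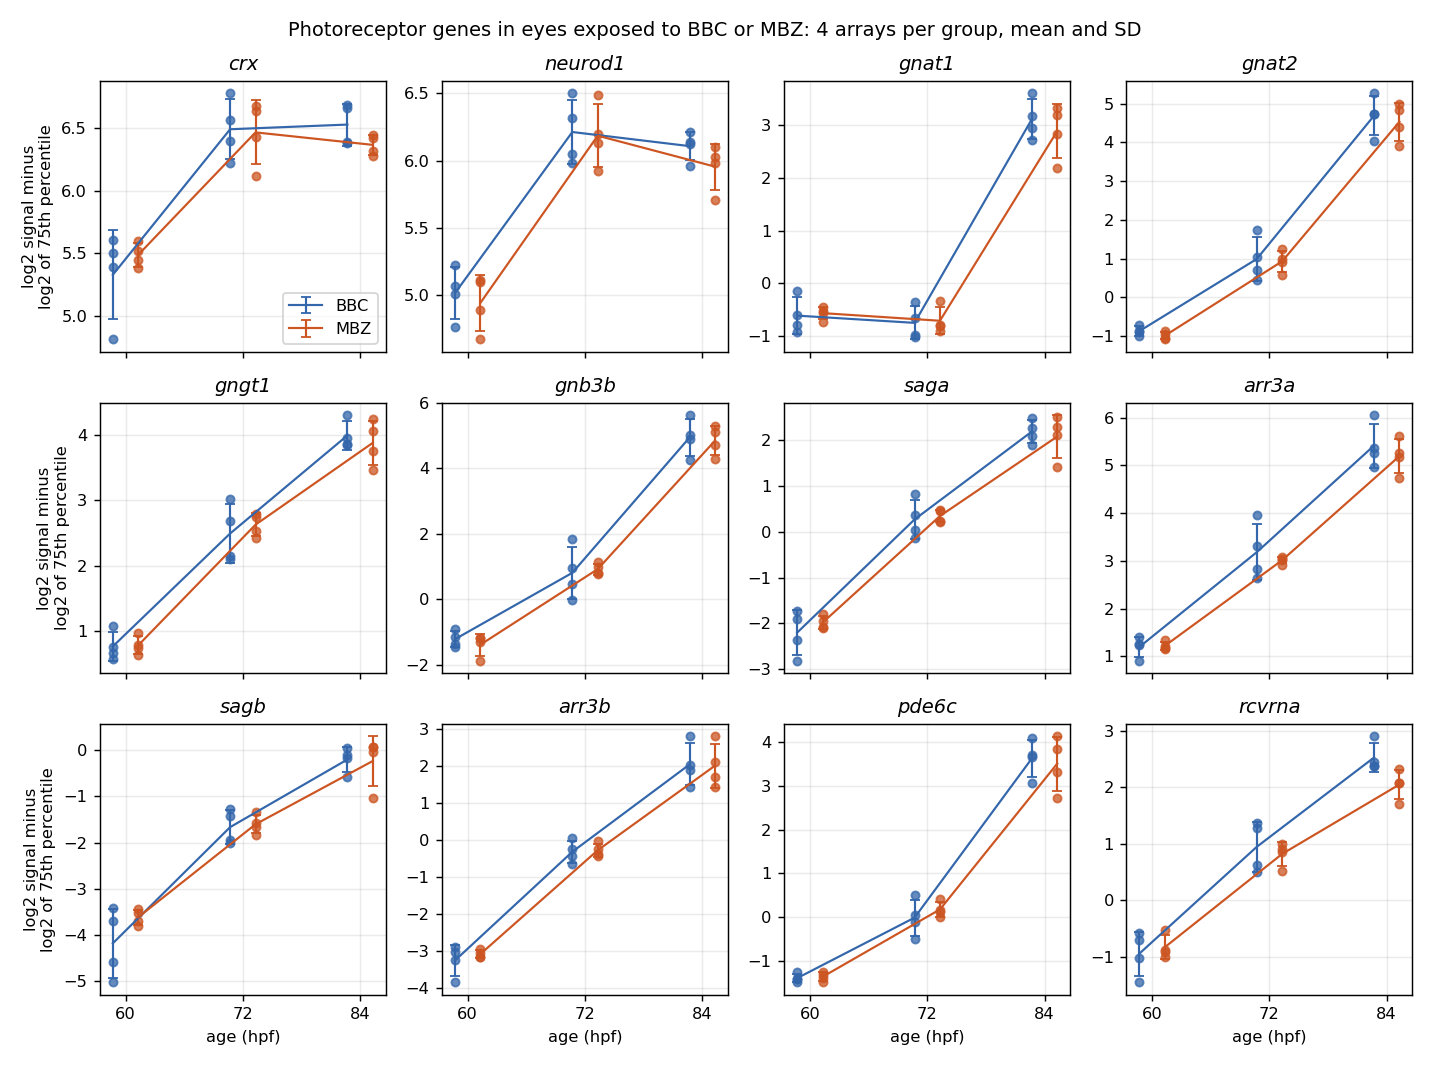
Log2 signal minus the log2 of the array's 75th percentile (y axis) at 60, 72 and 84 hpf (x axis) for 12 genes, with a point for each array, and lines and bars for the mean and SD of the 4 arrays of BBC and MBZ eyes, set slightly apart. crx and neurod1 stay near their 72 hpf level at 84 hpf, the gnat1 values at 60 and 72 hpf overlap, and the BBC and MBZ points overlap at each age except for rcvrna at 84 hpf.

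The transcription factors that set up photoreceptors come at the head of the cascade. crx, the cone-rod homeobox factor, had values of 5.39, 4.81, 5.5 and 5.61 at 60 hpf, 6.22, 6.57, 6.78 and 6.4 at 72 hpf and 6.69, 6.66, 6.39 and 6.38 at 84 hpf in BBC eyes. In MBZ eyes it had 5.6, 5.38, 5.45 and 5.52 at 60 hpf, 6.12, 6.64, 6.43 and 6.68 at 72 hpf and 6.32, 6.42, 6.45 and 6.28 at 84 hpf. The 60 hpf samples of either compound lay below all samples of the later ages, and the compounds overlapped at each age. In BBC eyes crx rose by 1.16 ± 0.15 (SE) from 60 to 72 hpf (adjusted p = 8.84e-07) and its change from 72 to 84 hpf was 0.04 ± 0.15.

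neurod1, a basic helix-loop-helix factor of photoreceptor and other neuronal precursors, had 5.01, 4.76, 5.07 and 5.22 at 60 hpf, 5.98, 6.32, 6.5 and 6.05 at 72 hpf and 6.12, 6.21, 5.96 and 6.14 at 84 hpf in BBC eyes. Its values in MBZ eyes were 5.11, 4.89, 5.1 and 4.67 at 60 hpf, 5.92, 6.49, 6.13 and 6.2 at 72 hpf and 5.98, 6.1, 6.03 and 5.71 at 84 hpf. All 60 hpf samples were again the low ones, and the change in BBC eyes was 1.2 ± 0.14 (SE, adjusted p = 1.45e-07) and then −0.11 ± 0.14. otx5, a homeobox factor of the same family as crx, had 3.6, 3.16, 3.82 and 3.94 at 60 hpf, 4.28, 4.57, 4.66 and 4.45 at 72 hpf and 4.46, 4.62, 4.46 and 4.44 at 84 hpf in BBC eyes, and 3.72, 3.58, 3.77 and 3.92 at 60 hpf, 4.17, 4.44, 4.46 and 4.51 at 72 hpf and 4.46, 4.45, 4.39 and 4.09 at 84 hpf in MBZ eyes. In BBC eyes it changed by 0.86 ± 0.14 (SE, adjusted p = 9.05e-06), under a doubling, and then by 0.00 ± 0.14.

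A rise by 72 hpf with no further rise depends on the scaling for these 3 factors. The change from 72 to 84 hpf in BBC eyes was 0.38 for neurod1 with the authors' normalized values, and with background-corrected median signals the change of otx5 from 60 to 72 hpf was −0.09. Under the main setting and 6 alternatives the change from 60 to 72 hpf in BBC eyes lay between 0.27 and 1.23 for crx. It lay between −0.09 and 0.9 for otx5 and between 0.29 and 1.2 for neurod1. From 72 to 84 hpf the ranges were 0.04 to 0.87 for crx, 0 to 0.93 for otx5 and −0.11 to 0.87 for neurod1. From 60 to 84 hpf the changes in BBC eyes lay between 1.14 and 1.59 for crx, 0.84 and 1.1 for otx5, and 1.09 and 1.47 for neurod1 under the same settings. The median of all tested probes itself moved by 0.20 from 60 to 72 hpf in BBC eyes with the main scaling, by 0.77 with the median signals, by 0.02 with quantile normalization and by 0 with the authors' values.

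The subunits of transducin differed among themselves in the timing of their rise. gnat1, the rod alpha subunit, had −0.8, −0.93, −0.6 and −0.14 at 60 hpf, −1.03, −0.66, −0.35 and −0.98 at 72 hpf and 3.18, 2.96, 3.61 and 2.72 at 84 hpf in BBC eyes. MBZ eyes gave −0.57, −0.73, −0.46 and −0.52 at 60 hpf, −0.8, −0.91, −0.33 and −0.82 at 72 hpf and 2.19, 2.84, 3.34 and 3.2 at 84 hpf. The samples of 60 and 72 hpf overlapped and those of 84 hpf lay far above both. The change in BBC eyes was −0.13 ± 0.23 (SE) from 60 to 72 hpf (adjusted p = 0.613) and 3.87 ± 0.23 from 72 to 84 hpf (adjusted p = 5.55e-11), a 14.6-fold rise. The other gnat1 probe was at −1.37 in the earlier interval, the only 2-fold fall among the 54 probes, and rose by 4.26 in the later.

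gnat2, the cone alpha subunit, had −0.89, −1.01, −0.87 and −0.72 at 60 hpf, 0.45, 1.05, 1.75 and 0.71 at 72 hpf and 4.73, 4.74, 5.27 and 4.03 at 84 hpf in BBC eyes, and −1.06, −1.08, −0.87 and −0.96 at 60 hpf, 0.91, 0.58, 1.24 and 0.99 at 72 hpf and 3.91, 4.39, 5.0 and 4.84 at 84 hpf in MBZ eyes. The 3 ages did not overlap in either compound. It rose by 1.86 ± 0.26 (SE) and then by 3.7 ± 0.26 in BBC eyes, 47.4-fold in all (adjusted p = 3.6e-12). Its other probe gave 0.59 and 4.73, so both probes placed the larger rise after 72 hpf.

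Among the beta and gamma subunits, gnb3b, a cone beta subunit, rose most. Its values in BBC eyes were −1.35, −1.44, −1.16 and −0.91 at 60 hpf, −0.02, 0.95, 1.85 and 0.46 at 72 hpf and 4.88, 5.01, 5.63 and 4.24 at 84 hpf, and in MBZ eyes −1.29, −1.19, −1.17 and −1.88 at 60 hpf, 0.81, 0.76, 1.13 and 0.99 at 72 hpf and 4.28, 4.71, 5.28 and 5.1 at 84 hpf. At 72 hpf the 4 BBC samples were spread from −0.02 to 1.85 while the MBZ samples were close together, and at 84 hpf all 8 samples lay above every earlier one. The rise in BBC eyes was 2.03 ± 0.32 (SE) and then 4.13 ± 0.32, 71.3-fold from 60 to 84 hpf (adjusted p = 8.72e-12). Its paralog gnb3a rose by 1.7 ± 0.31 and 1.33 ± 0.31.

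gngt1, the rod gamma subunit, had 0.66, 0.57, 0.76 and 1.08 at 60 hpf, 2.11, 2.69, 3.03 and 2.15 at 72 hpf and 3.96, 3.85, 4.31 and 3.86 at 84 hpf in BBC eyes, and 0.64, 0.74, 0.97 and 0.79 at 60 hpf, 2.54, 2.75, 2.8 and 2.43 at 72 hpf and 3.47, 3.76, 4.24 and 4.06 at 84 hpf in MBZ eyes. The ages did not overlap and the compounds did. It rose by 1.73 ± 0.19 (SE) and 1.5 ± 0.19 in BBC eyes, the earlier step in the interval in which rod alpha gave −0.13 ± 0.23. gnb1b behaved unlike the rest, with a rise of 1.72 ± 0.1 by 72 hpf and a change of −0.75 ± 0.1 thereafter (adjusted p = 3.99e-06), and its other probe gave 1.24 and −0.77.

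The effector of transducin, PDE6, was represented by its rod and cone catalytic subunits and by a cone inhibitory subunit. pde6c, the cone catalytic subunit, had −1.4, −1.49, −1.41 and −1.26 at 60 hpf, −0.49, 0.05, 0.51 and −0.11 at 72 hpf and 3.65, 3.7, 4.09 and 3.06 at 84 hpf in BBC eyes, against −1.38, −1.49, −1.26 and −1.31 at 60 hpf, 0.12, 0.01, 0.41 and 0.17 at 72 hpf and 2.73, 3.32, 4.13 and 3.85 at 84 hpf in MBZ eyes. All ages were apart, and the 84 hpf values were widest in MBZ eyes. The rise in BBC eyes was 1.38 ± 0.24 (SE) and then 3.63 ± 0.24 (adjusted p = 2.28e-10). pde6hb, the cone inhibitory subunit, went the other way in time with 3.18 ± 0.26 by 72 hpf and 1.18 ± 0.26 thereafter. pde6a, a rod catalytic subunit, changed least of the PDE6 genes, by 0.7 ± 0.18 and 1.36 ± 0.18.

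With the brightest probe of each gene, the rod and the cone arrestin genes, whose proteins cap activated opsin, rose in both intervals. saga, a rod arrestin, had −2.36, −2.82, −1.9 and −1.72 at 60 hpf, 0.03, 0.36, 0.82 and −0.14 at 72 hpf and 2.27, 2.09, 2.48 and 1.9 at 84 hpf in BBC eyes, and −1.95, −2.08, −1.8 and −2.1 at 60 hpf, 0.24, 0.47, 0.45 and 0.21 at 72 hpf and 1.41, 2.11, 2.5 and 2.29 at 84 hpf in MBZ eyes. sagb, its paralog, had −4.58, −5.03, −3.7 and −3.42 at 60 hpf, −1.94, −1.43, −1.28 and −2.02 at 72 hpf and −0.1, −0.17, 0.05 and −0.59 at 84 hpf in BBC eyes and −3.53, −3.69, −3.8 and −3.45 at 60 hpf, −1.83, −1.58, −1.35 and −1.66 at 72 hpf and −1.03, −0.05, 0.07 and 0.07 at 84 hpf in MBZ eyes. No age overlapped another within a compound for either gene, and the lowest MBZ sample of both at 84 hpf was replicate 1. From 60 to 84 hpf in BBC eyes saga rose 20.9-fold and sagb 15.8-fold (log2 4.39 ± 0.24 and 3.98 ± 0.29, SE). The other saga probe gave 0.77, under a doubling, in the earlier interval and 2.73 in the later.

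The cone arrestins followed. arr3a had 1.23, 0.9, 1.4 and 1.25 at 60 hpf, 2.82, 3.31, 3.95 and 2.64 at 72 hpf and 5.26, 5.37, 6.06 and 4.97 at 84 hpf in BBC eyes, and 1.17, 1.21, 1.15 and 1.34 at 60 hpf, 2.92, 3.02, 3.04 and 3.07 at 72 hpf and 4.74, 5.26, 5.61 and 5.17 at 84 hpf in MBZ eyes. arr3b had −3.22, −3.84, −2.89 and −3.03 at 60 hpf, −0.44, −0.25, 0.07 and −0.64 at 72 hpf and 2.04, 1.89, 2.8 and 1.44 at 84 hpf in BBC eyes, and −3.15, −3.05, −3.15 and −2.94 at 60 hpf, −0.25, −0.43, −0.03 and −0.38 at 72 hpf and 1.44, 1.7, 2.8 and 2.1 at 84 hpf in MBZ eyes. Within each compound the ages stood apart for both genes. arr3a rose by 1.98 ± 0.24 (SE) and 2.24 ± 0.24 and arr3b by 2.93 ± 0.27 and 2.36 ± 0.27 in BBC eyes. The other arr3a probe gave 0.64, under a doubling, in the earlier interval and 3.52 in the later.

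The opsin kinases mark activated opsin for arrestin. grk1a, the rod kinase, was well above background on 0, 2 and 4 of the 4 BBC arrays at 60, 72 and 84 hpf, and on 0, 4 and 4 of the MBZ arrays. Its values were −8.59, −8.67, −8.69 and −8.55 at 60 hpf, −6.36, −5.35, −5.4 and −5.93 at 72 hpf and −4.78, −4.71, −4.44 and −5.12 at 84 hpf in BBC eyes and −9.16, −8.88, −8.63 and −8.39 at 60 hpf, −5.7, −5.88, −5.44 and −4.3 at 72 hpf and −5.73, −4.59, −4.88 and −4.45 at 84 hpf in MBZ eyes. Set against a floor in place of the dim 60 hpf signals, the level in BBC eyes was 1.56-fold higher at 72 hpf and 3.12-fold higher at 84 hpf. The floor is the lowest signal of probes well above background on each dim array, or the probe's own signal where higher. A probe can miss the flag above that floor, so these folds are not strict lower bounds. Over the 6 settings that held grk1a, its log2 change in BBC eyes from 60 hpf ran from 0 to 2.87 by 72 hpf. By 84 hpf it ran from 0.47 to 3.86.

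grk1b, a cone paralog of the rod kinase, had −4.85, −4.68, −5.04 and −4.91 at 60 hpf, −6.6, −5.06, −5.1 and −5.4 at 72 hpf and −0.42, −0.54, 0.38 and −1.12 at 84 hpf in BBC eyes. It was not well above background on 1 BBC array at 72 hpf. All 72 hpf samples lay below those of 60 hpf and all 84 hpf samples far above both, with a change of −0.67 ± 0.37 (SE) in the earlier interval (adjusted p = 0.111) and a rise of 5.12 ± 0.37 in the later (adjusted p = 6.87e-10). grk7a, a cone opsin kinase, rose by 1.73 ± 0.26 and 3.14 ± 0.26. Its paralog grk7b gave 0.37 ± 0.17 from 60 to 84 hpf (adjusted p = 0.0571), the only cone gene of the 12 that did not pass the test.

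All 5 tested calcium sensors rose from 60 to 84 hpf in BBC eyes, or 4 of 4 without guca1b, where 15.1% of all probes rose. rcvrna had −1.03, −1.46, −0.59 and −0.71 at 60 hpf and 0.62, 1.28, 1.37 and 0.5 at 72 hpf in BBC eyes, below its 84 hpf values given above, and rose 11.1-fold from 60 to 84 hpf. The cone recoverin rcvrn2 rose 19.4-fold. Of the guanylate cyclase activating proteins, guca1a rose 7.06-fold. Its log2 change ran from 1.53 to 2.82 over 7 settings, and it passed as risen in 6 of them. guca1c changed by 3.93 ± 0.27 (SE) on the log2 scale, and by 1.78 to 3.93 over the 6 settings that held it. The size is uncertain because guca1c was well above background on only 1 of the 4 BBC arrays at 60 hpf, against 4 of 4 MBZ arrays. guca1b was not well above background on any 60 hpf array. Against the floor described for grk1a, its level at 84 hpf in BBC eyes was 14.8-fold higher. Its log2 change from 60 to 84 hpf in BBC eyes ran from 1.92 to 5.1 over the 6 settings that held it.

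prph2a, a peripherin that shapes the disc rim, had −5.14, −5.72, −4.25 and −4.2 at 60 hpf, −1.52, −0.7, −0.13 and −1.42 at 72 hpf and 2.79, 2.75, 3.84 and 2.38 at 84 hpf in BBC eyes. The ages were far apart, and the rise of 7.76 ± 0.37 (SE), 217-fold, was the largest of the 33 in BBC eyes when each gene is taken by its brightest probe. Its other 3 probes, at 6.22 to 7.31, were not well above background on any BBC array at 60 hpf. They passed only through later ages, so they were bound to rise and add no separate evidence. prph2b rose by 6.25 ± 0.29, next to the 6.16 ± 0.32 of gnb3b and within their errors, and in MBZ eyes the order was the reverse at 5.82 ± 0.29 and 6.22 ± 0.32. The peripherin partners rom1a and rom1b rose 23.9-fold and 24.5-fold. prom1b, a prominin of the forming discs, rose 19.1-fold.

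rs1a, a retinoschisin secreted by photoreceptors, had −0.38, −0.65, 1.13 and 1.3 at 60 hpf, 4.04, 4.58, 5.36 and 4.11 at 72 hpf and 5.34, 5.43, 5.62 and 5.17 at 84 hpf in BBC eyes. BBC replicates 1 and 2, on the same slide, were the low ones at 60 hpf. Most of its rise was early, 4.17 ± 0.35 (SE) against 0.86 ± 0.35 later. pdcb, a phosducin that binds transducin beta and gamma, rose 30.3-fold. unc119b, a chaperone of lipid-bearing proteins that is also used outside photoreceptors, was the only gene whose mean was lower at 84 than at 60 hpf in BBC eyes, with a change of −0.56 ± 0.12 on the log2 scale (adjusted p = 0.000503).

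In BBC eyes 30 of the 33 genes were well above background on all 4 arrays at 60 hpf, 2 first at 72 hpf and 1 first at 84 hpf. In MBZ eyes it was 31 at 60 hpf and 2 first at 72 hpf. Most were thus already detected in the first samples, and their onset cannot be ordered here. The size of the change in each interval shows when the signal rose most. In BBC eyes 21 of the 33 genes rose in both intervals, where 1.2% of all probes did so. Another 5 rose only in the earlier (crx, gnb1b, grk1a, neurod1 and rs1a, against 21.1% of all probes), 4 only in the later (gnat1, grk1b, guca1a and pde6a, against 4.61%) and 3 in neither (grk7b, otx5 and unc119b, against 73.1%). Without grk1a and guca1b the counts were 20, 4, 4 and 3 of 31. The rise of grk1a cannot be placed in time, since its 60 hpf signals were not well above background. Its 1.56-fold by 72 hpf was set against a floor. These are counts of calls, and the difference between the intervals was tested separately. The place of some genes depended on the processing. Under all the settings that held them, 18 of the 33 genes rose in the earlier interval in BBC eyes and 19 in the later. rs1a passed as risen in the later interval in 3 of 7 settings, and crx in the earlier in 5 of 7. Over the settings that held grk1b and guca1a, their earlier change in BBC eyes ran from −1.36 to 1.75 and from 0.12 to 2.11. The later change of guca1a ran from −0.58 to 2.29. Of the 12 cone genes 10 rose in both intervals, and of the 7 rod genes 3, or 3 of 6 without grk1a. The counts of genes that rose in both intervals rest on the brightest probe. The other probe did not pass as risen from 60 to 72 hpf for arr3a (0.64), gnat2 (0.59), grk7a (0.85), pde6c (0.46), saga (0.77) and prph2b (0.16). For prph2b that probe was well above background on 0 of 4 BBC arrays at 60 and at 72 hpf. For pde6c it was so on 1 of 4 at each age, and neither probe could measure the earlier change. The other probes of gnb3b, gngt1, prph2a, rcvrn2, rcvrna, rom1a and rom1b rose in both intervals. Those of prph2a and the dimmest of rom1a passed only through later ages and were bound to rise. The cone genes had a median change of 1.92 in the earlier and 2.30 in the later interval, the rod genes 1.73 and 1.47, and the 14 shared genes 2.24 and 1.66. Without grk1a and guca1b the rod medians were 1.72 and 1.48 and the shared medians 2.24 and 1.58. The classes were not tested against each other, since genes are not replicates.

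**Figure D4:**
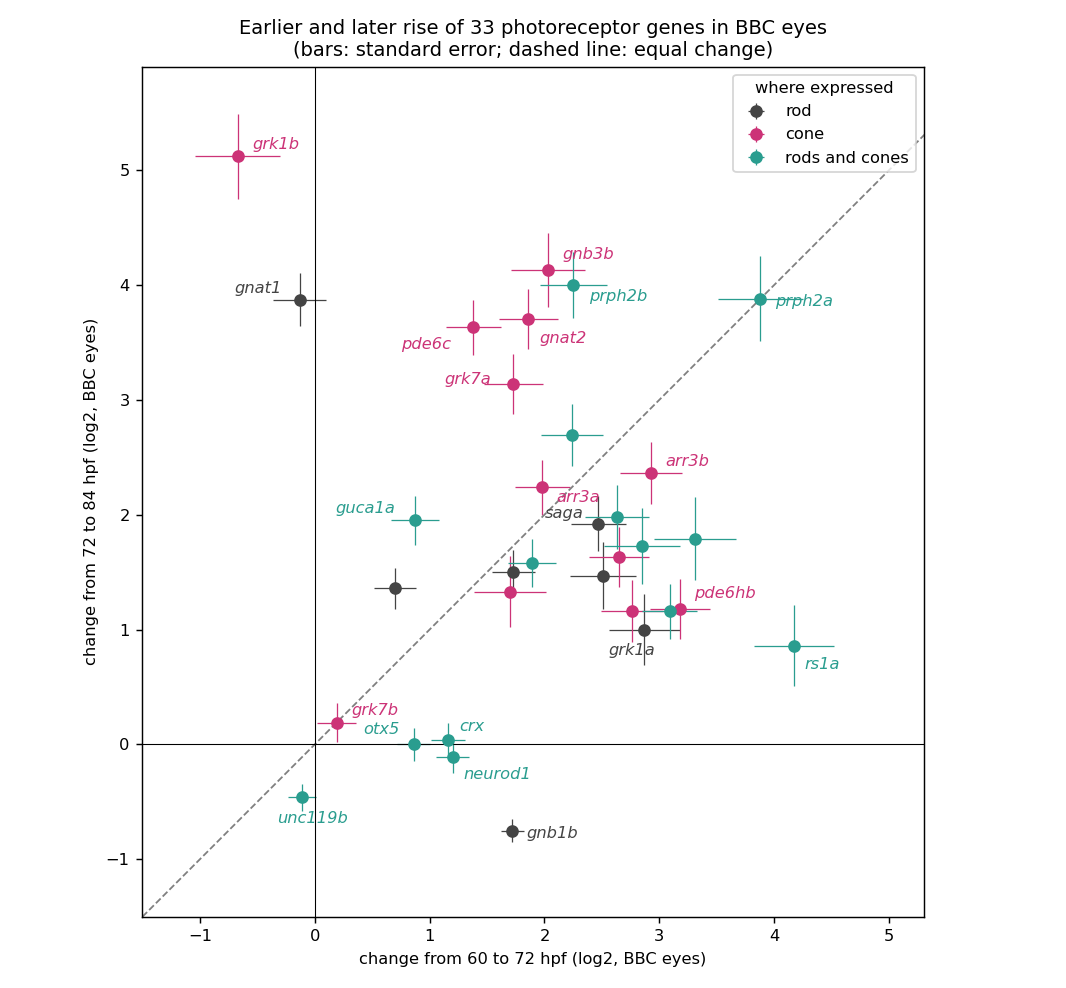
Log2 change of each of the 33 genes in BBC eyes from 60 to 72 hpf (x axis) and from 72 to 84 hpf (y axis), with standard errors and with colours for the cell type in which the gene is known to be expressed. gnat1 and grk1b lie at the upper left, gnat2, gnb3b and pde6c above the dashed line of equal change, and rs1a at the lower right.

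In a test of the later minus the earlier change in limma, 8 genes had the larger rise in the later interval in BBC eyes, at an adjusted p under 0.05, where 26% of all probes lay on that side, and 10 had it in the earlier interval, where 41.5% did. Neither count exceeded its background share, and without grk1a and guca1b the counts were 8 and 8 of 31. The differences were 4.0 ± 0.4 (SE) for gnat1, 2.11 ± 0.55 for gnb3b, 2.25 ± 0.42 for pde6c and 1.84 ± 0.45 for gnat2. These 4 were called on the later side under the main setting and each of 6 alternatives, with differences from 3.48 to 4.82 for gnat1 and from 1.84 to 3.04 for gnat2. The other genes on that side were grk1b, grk7a, guca1a and prph2b. The remaining tested transducin subunits were not on it. They gave −0.22 for gngt1 and −0.37 for gnb3a without a call, and −2.47 for gnb1b, called on the earlier side. In MBZ eyes 7 genes lay on the later side (27.2% of all probes) and 11 on the earlier (41.9%), or 7 and 9 of 31 without grk1a and guca1b. There gnat1, gnb3b, pde6c and gnat2 were called at 3.75 ± 0.4, 1.61 ± 0.55, 1.79 ± 0.42 and 1.68 ± 0.45.

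No gene was called on the earlier side in BBC eyes under all settings. The largest differences on that side were −3.31 ± 0.61 (SE) for rs1a, −2.47 ± 0.18 for gnb1b, −2.0 ± 0.45 for pde6hb and −1.93 ± 0.42 for prom1b, and each was called in 6 of 7 settings. In MBZ eyes rs1a was called in all 7, at −3.25 ± 0.61. grk1b had the largest later difference, 5.79 ± 0.65, and it was called in 5 of the 6 settings that held it.

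Set against its own level at 84 hpf, the median cone gene of BBC eyes was at 4.76% at 60 hpf and 20.4% at 72 hpf. The median rod gene was at 7.48% and 36.1%, and the median shared gene at 4.72% and 31.8%. Without grk1a and guca1b the rod medians were 9.09% and 35.8% and the shared medians 5.22% and 33.4%. Among single genes at 72 hpf, grk1b was at 2.9%, gnb3b at 5.71%, gnat1 at 6.79%, gnat2 at 7.69% and pde6c at 8.08%. With the main scaling, on which these percentages depend, crx was at 97.3%, otx5 at 99.3%, neurod1 at 107% and rs1a at 54.7%. Under the main setting and 6 alternatives the change of rs1a from 72 to 84 hpf in BBC eyes ran from 0.86 to 1.84. For gngt1 it ran from 1.5 to 2.43 and for sagb from 0.44 to 1.5. The medians of rod, cone and shared genes are given with the main scaling only. MBZ eyes had a median of 21.2% for cone genes and 42% for rod genes at 72 hpf, the latter 40.5% without grk1a.

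Where a gene had several probes, they differed in how they split the rise. For 18 genes with 2 or more tested probes, the dimmer probes of 13 gave a smaller change from 60 to 72 hpf than the brightest, and those of 13 a larger change from 72 to 84 hpf. These counts take in dimmer probes near background at the earlier ages, such as those of prph2b and pde6c, which cannot show an early change. rom1b gave 2.63 and 1.98 in the 2 intervals with its brightest probe and 1.12 and 3.43 with the other. saga gave 2.47 and 1.92 against 0.77 and 2.73, and its split between the intervals therefore changed sides with the probe. For arr3a the later minus the earlier change was 0.25 without a call with the brightest probe. With the other arr3a probe it was 2.88 and was called. Over all 54 probes 48 rose from 60 to 84 hpf in BBC eyes, where 15.1% of all probes did. The 48 take in probes that passed only through later ages and were bound to rise. These were the probes of grk1a and guca1b and dimmer probes of prph2a, prph2b, rom1a and pde6c. None of the 54 was called for MBZ against BBC at any time.

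Other genes of the pathway and the cells were followed for context. Of the 5 tested visual opsins opn1mw1, opn1sw2 and opn1lw2 were well above background on every array at 60 hpf and rose by 9.22, 7.56 and 4.99 on the log2 scale by 84 hpf in BBC eyes. opn1mw2 and opn1mw3 passed only through later ages and are not counted as rising. None of the 5 was called for MBZ at any time. Of 18 tested genes from a longer list of photoreceptor genes, 8 rose from 60 to 84 hpf, where 15.1% of all probes did, among them rcvrn3 by 3.52, gnb5b, a beta subunit of the complex that stops transducin, by 3.05, and elovl4b, an enzyme of very long fatty acids, by 2.71. In that list 1 of 18 was called at 36 h, a share near the 5.62% of all probes. This was thrb, a thyroid hormone receptor, at −0.51 for MBZ minus BBC (SE 0.17, adjusted p = 0.158).

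Markers of other cells were followed with age as well, where 15.1% of all probes rose and 8.67% fell 2-fold from 60 to 84 hpf in BBC eyes. All 4 tested muscle genes rose, by a median of 2.86, and 3 of the 4 progenitor genes and all 4 red blood cell genes fell 2-fold. Genes of other retinal cells rose as well, all 3 of bipolar cells, by a median of 1.84, and 3 of 7 of amacrine and ganglion cells. Of 6 pigment epithelium genes 2 rose and of 4 Müller glia genes 1. Of 9 lens genes 1 rose, a share near that of all probes. The log2 of the summed muscle signals ranged from 1.71 to 3.1 at 60 hpf and from 5.16 to 5.82 at 84 hpf in BBC eyes, and that of the progenitor genes from 6.72 to 7.06 and from 5.36 to 5.71. The 1 tested gene of a pineal list changed by −3.05 from 60 to 72 hpf and by 1.52 from 72 to 84 hpf in BBC eyes. In MBZ eyes it changed by −2.93 and 1.58. The part of pineal RNA or of a changing mix of cells in the changes of the photoreceptor genes was not tested.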

How the data were processed

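RNA from pooled eyes of 24 zebrafish samples was hybridized by the authors to one-colour Agilent arrays, 1 array per sample. The deposited intensity values were extracted by the authors with Feature Extraction, version 10.1.1.1 per the file headers, which subtracts background and removes spatial trends. The log2 values deposited by the authors in the series matrix had been normalized with Agi4x44PreProcess, with options not given in the sources used here, and served as an alternative. Processed intensities were averaged over the spots of a probe, uneven spots left out, and expressed as log2 minus the log2 of the array's 75th percentile, with no pseudocount. The probes tested had to pass the positive and the well above background flags in each of the 4 arrays of some group, and a probe with only uneven spots on an array had a missing value there, which none of the tested members had. limma 3.58.1 in R 4.3.3 was fitted to the 6 groups with 18 residual degrees of freedom, and p-values were adjusted by Benjamini-Hochberg over all tested probes. The thresholds were 0.20 for the compounds, the level in the study's methods, and 0.05 with a 2-fold change for age. The test of the later against the earlier interval was added after the data were seen. Recovery of known changes by the fit was tested on simulated data.

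Probes were named through RefSeq accessions, 15163 probes for 10536 genes, and the brightest tested probe stood for a gene. Names were taken from the GRCz12tu annotation. Promoters and protein sequences were not used here. The members, lists and tests were chosen with earlier results of these data known. Values per array were given for the transcription factors, the 3 rod and 3 cone genes with the largest rise from 60 to 84 hpf, any gene called for MBZ, and rod and cone counterparts. Those of rcvrna, gnb1b, grk1b, prph2a and rs1a were added after their values were seen. Exact permutation tests of 4 arrays against 4 cannot go below p = 0.0286.

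Same-numbered MBZ and BBC samples deviated together at 24 h, with pair correlations of 0.31, 0.16, 0.21 and 0.44, and at 24 h the numbers were taken to pair the samples. The main fit held no pairs at any time, and pairs entered only through the alternatives with a replicate block. At 12 h the correlations were 0.09, 0.09, 0.03 and 0.13 and at 36 h −0.02, 0.15, 0.37 and 0.01, and the samples were not taken as paired. The alternatives were quantile normalization, the authors' values, a normexp correction of median signals with an offset of 50, 2 other filters on dim probes, the mean over a gene's probes, blocks for replicate or slide, the arrays of 1 age alone, the rank product, other thresholds, and leaving out each array.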

Additional observations from a re-analysis of the deposited data

Results flagged for a closer look

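In 84 checks of 4 samples each, a single sample stood far from the other 3 of its group in 3, and chance alone sets a sample apart in about 1 of 20 such checks. otx5 in BBC replicate 2 of 36 h was 4.62 on the log2 scale, with the others between 4.44 and 4.46. sagb in MBZ replicate 1 of 36 h was −1.03, with the others between −0.05 and 0.07, and this was the sample in which 28 of the 33 genes had the lowest value of the group. gnb3b in MBZ replicate 4 of 12 h was −1.88, with the others between −1.29 and −1.17.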

How the results depend on the processing

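With the replicate block within each exposure time, 2 genes were called at 36 h (rcvrna and gnb1b), where the samples were not taken as paired. At 24 h, where they were, 0 were called. Leaving out 1 array at a time gave 0 to 1 genes called at 36 h. No other alternative gave a call for MBZ at any time. The median difference at 36 h was −0.41 on the slide of replicates 1 and 2 alone and 0.10 on the other slide, and −0.27 to 0.03 without single arrays. At 12 h the number of genes with a lower mean in MBZ eyes was 9, and 25 on the slide of replicates 3 and 4.

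The genes risen in BBC eyes numbered 23 to 29 from 60 to 72 hpf and 20 to 27 from 72 to 84 hpf over the alternatives. In MBZ eyes they numbered 22 to 29 and 20 to 25. These alternatives include a count without the fold limit, so the upper ends take in genes that rose by less than a doubling. The shares of all probes risen under the alternatives are not given here. The genes with the larger rise in the earlier interval fell from 10 to as few as 6 in BBC eyes and from 11 to as few as 3 in MBZ eyes. With the authors' values the changes from 72 to 84 hpf reversed for crx in MBZ eyes (0.54, and 0.47 with quantile normalization) and for neurod1 in BBC (0.38) and MBZ eyes (0.32). With the median signals grk1a in BBC eyes gave −1.73 from 72 to 84 hpf and otx5 in BBC eyes −0.09 from 60 to 72 hpf. The cause was not tested. The precision is limited by 4 arrays a group, with a median standard error of 0.14 over all tested probes, and for grk1a and guca1b by the background at 60 hpf. Among the rod and cone counterparts the standard error of the changes with age in BBC eyes ran from 0.1 for gnb1b to 0.37 for grk1b. All but gnb1b were above that median.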
